A study of Mus musculus with 16 samples.

Results

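A set of 7 genes whose work in skeletal muscle is little known, and whose RNA is lower in muscle without *Mtm1*, was followed through 4 groups of mice: *B230312C02Rik*, *Hrasls*, *Mpp3*, *Cdh4*, *Fam57b*, *Ccdc85c* and *Fsd2*. They are 7 of the 41388 genes in the count table, were taken by symbol, and were chosen by their measured counts, which were lower in untreated knockout than in untreated wild type muscle. That contrast is therefore a description here, and the tests rest on the mice given tamoxifen and on the effect of the drug. All 7 passed the filter on low counts in every comparison.

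*Mtm1* encodes myotubularin, a phosphatase of phosphoinositides on endosomal membranes, and its loss causes X-linked myotubular myopathy, in which muscle fibers stay small and the triads, where the transverse tubule meets the sarcoplasmic reticulum, are disorganized. Tamoxifen is a modulator of estrogen receptors, and the study asked whether it changes the transcriptome of this muscle. The 7 genes have unlike products. *B230312C02Rik* is a long intergenic noncoding RNA, *Hrasls* (now *Plaat1*) is a phospholipase and acyltransferase, *Mpp3* is a scaffold protein of the membrane-associated guanylate kinase family, *Cdh4* is R-cadherin, *Fam57b* (now *Tlcd3b*) is a membrane protein with a TLC domain that is linked to ceramide, *Ccdc85c* is a coiled-coil protein of cell junctions, and *Fsd2* has fibronectin and SPRY domains.

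RNA was sequenced from the quadriceps of C57BL/6 mice at postnatal day 36, with 4 libraries in each of 4 groups. WT mice were wild type and KO mice carried a targeted deletion of exon 4 of *Mtm1* (mtm1 -/-), in both cases without tamoxifen. The WT + TAM and KO + TAM mice ate chow with 40 mg/kg tamoxifen per day from day 21 on. The paper states that its n values are individual mice, and the labels name no batch. Summed levels of cell type markers in WT + TAM replicates 7 and 8 were close to each other (values with the processing below). Whether these libraries come from separate mice was not tested.

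Library totals ran from 25116179 to 29847222 counts. The *Mtm1* count was 341 to 369 in 3 WT libraries, 282 to 459 in WT + TAM, 63 to 85 in KO and 53 to 97 in KO + TAM. It was 74 in the library labelled WT replicate 1, which went against its label. That library and the one labelled KO replicate 12 are not among the 14 libraries that the study analysed, and unless stated the values below come from those 14 (3 WT, 4 WT + TAM, 3 KO and 4 KO + TAM). Mature fiber genes (*Ckm*, *Acta1*, *Tnnt3*, *Mylpf* and *Pygm*) summed to 58217 to 144433 CPM (counts scaled to library size) in these 14 libraries, and none of them was at 0 in any.

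The genes lie on 5 chromosomes (GRCm38, annotation GENCODE vM21). *B230312C02Rik* (ENSMUSG00000084843) spans chr2:180370491-180385885 on the minus strand, with 7 exons and no coding sequence. *Cdh4* (ENSMUSG00000000305) is on the same chromosome, 471.1 kb away, at chr2:179442431-179899373 on the plus strand, with 16 exons in 1 coding transcript. *Hrasls* (ENSMUSG00000022525) is at chr16:29209695-29230531 on the plus strand, *Mpp3* (ENSMUSG00000052373) at chr11:101999652-102028461 on the minus strand, and *Ccdc85c* (ENSMUSG00000084883) at chr12:108203602-108275425 on the minus strand. *Fam57b* (ENSMUSG00000058966) at chr7:126797668-126830219 on the plus strand and *Fsd2* (ENSMUSG00000038663) at chr7:81533308-81566944 on the minus strand share chromosome 7. Counts were given per gene, and the sources used here do not state which exons or reads they cover.

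Promoter sequences, from 250 bases before to 50 bases after the start, were found in RefSeq (GRCm38.p6) for 4 of the 7 genes, with 7 promoters in all. They were searched on both strands for the E-box CANNTG, bound by myogenic factors such as MyoD, the MEF2 site, the CArG box, the MCAT box CATTCC and the palindromic estrogen response element. Only E-boxes were found, 3 in *Fsd2*, 1 and 2 in 2 of the 3 promoters of *Fam57b*, 1 in *Ccdc85c* and none in either promoter of *Hrasls*. Of all 32851 promoters of this length, 72.3% held an E-box, 3.19% a MEF2 site, 1.63% a CArG box, 14.7% an MCAT box and 0.07% the estrogen response element. The promoters of *Fsd2* (chr7:81566932-81567231, minus strand), of *Ccdc85c* (chr12:108275344-108275643, minus strand), with 81.0% G and C at the 99.3rd percentile of all promoters, and the third of *Fam57b* (chr7:126824403-126824702, plus strand) are shown for the contrast in their E-boxes, which stand in capitals.
Fsd2 promoter: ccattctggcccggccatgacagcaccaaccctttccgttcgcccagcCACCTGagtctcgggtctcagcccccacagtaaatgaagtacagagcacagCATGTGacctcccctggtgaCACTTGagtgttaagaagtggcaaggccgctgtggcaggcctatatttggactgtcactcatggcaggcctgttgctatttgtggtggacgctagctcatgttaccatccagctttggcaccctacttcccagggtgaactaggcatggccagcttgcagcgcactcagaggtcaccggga
Ccdc85c promoter: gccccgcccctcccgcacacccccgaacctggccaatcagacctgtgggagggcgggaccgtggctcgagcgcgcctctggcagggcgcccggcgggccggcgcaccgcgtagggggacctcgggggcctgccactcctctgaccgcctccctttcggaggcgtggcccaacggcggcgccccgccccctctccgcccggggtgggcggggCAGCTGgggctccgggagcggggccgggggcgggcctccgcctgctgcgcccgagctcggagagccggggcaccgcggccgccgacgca
Fam57b promoter: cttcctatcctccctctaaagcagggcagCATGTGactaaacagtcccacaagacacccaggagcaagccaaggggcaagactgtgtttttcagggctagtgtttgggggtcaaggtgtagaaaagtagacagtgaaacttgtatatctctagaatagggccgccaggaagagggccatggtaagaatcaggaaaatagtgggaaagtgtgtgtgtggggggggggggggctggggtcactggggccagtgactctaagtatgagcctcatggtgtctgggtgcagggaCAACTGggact
In *Fsd2* the E-boxes begin 202, 151 and 131 bases before the start, in *Ccdc85c* 39 bases before it, and in *Fam57b* 221 bases before and 39 bases after it.

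The 7 genes differed widely in level. On the per-length scale (the authors' RPKM), the mean of the 3 WT libraries was 115 for *B230312C02Rik*, 68.1 for *Fsd2*, 16.2 for *Hrasls*, 10.4 for *Fam57b*, 6.60 for *Ccdc85c*, 2.38 for *Cdh4* and 2.27 for *Mpp3*. Among the 20545 genes with a value above 0 in WT, the noncoding RNA ranked 365th from the top and *Fsd2* 623rd, whereas *Cdh4* and *Mpp3* ranked 7881st and 8047th. All other levels below are CPM scaled by the TMM method, which compare libraries and not genes.

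*B230312C02Rik*, the noncoding RNA, differed most between the genotypes. Its CPM was 188, 277 and 184 in WT and 10.99, 7.89 and 9.71 in KO. With tamoxifen it was 97.6, 86.1, 134 and 131 in WT + TAM and 15.5, 3.66, 4.97 and 21.2 in KO + TAM. The groups of the 2 genotypes were far apart with and without the drug, and the 4 KO + TAM libraries were uneven, reaching both below and above the KO range. The mean level in KO was 4.40% of that in WT, and that in KO + TAM 10.1% of that in WT + TAM. In order of level WT, WT + TAM, KO + TAM and KO followed each other, and only the last pair overlapped.

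*Hrasls*, which transfers acyl chains between phospholipids and makes N-acyl phosphatidylethanolamine, had CPM of 56.8, 56.8 and 61.2 in WT and 18.8, 19.0 and 19.2 in KO. On tamoxifen it was 29.7, 36.7, 31.7 and 33.9 in WT + TAM and 16.1, 11.6, 16.4 and 20.5 in KO + TAM. It was thus lower in treated than in untreated wild type in every library, and the KO and KO + TAM libraries overlapped. The level in KO + TAM was 48.9% of that in WT + TAM, against 32.6% for KO of WT.

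*Mpp3*, a scaffold that binds adhesion proteins at cell contacts, had both tamoxifen groups between the untreated ones, each apart from the others. Its CPM was 21.4, 23.3 and 25.2 in WT and 16.5, 17.8, 16.1 and 17.4 in WT + TAM, and 7.59, 7.30, 10.3 and 7.08 in KO + TAM and 6.05, 5.69 and 6.11 in KO. No neighbors in this order overlapped. KO was at 25.5% of WT, and KO + TAM at 47.5% of WT + TAM.

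*Cdh4*, a calcium-dependent adhesion protein known from developing nerve and muscle, had CPM of 12.6, 27.4 and 17.4 in WT and 3.21, 2.06 and 2.48 in KO. Its CPM was 5.90, 17.7, 6.56 and 7.45 in WT + TAM and 1.76, 1.11, 0.365 and 2.23 in KO + TAM. WT + TAM replicate 6 stood well above the other 3 libraries of its group and overlapped WT. The lowest KO + TAM library, replicate 15, held 13 counts. KO was at 13.5% of WT, and KO + TAM at 14.5% of WT + TAM.

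*Fam57b*, which has been linked to ceramide synthesis, was the exception, being highest in WT + TAM. Its CPM was 61.2, 59.6, 55.5 and 58.2 there and 34.8, 27.2 and 32.9 in WT. It was 22.3, 17.1, 18.0 and 19.5 in KO + TAM and 12.5, 11.5 and 13.3 in KO. No 2 groups overlapped, and within each genotype the treated libraries were above the untreated ones. KO was at 39.3% of WT, and KO + TAM at 32.8% of WT + TAM.

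*Ccdc85c*, known for its place at the apical junctions of neural progenitors, had CPM of 9.75, 12.8 and 11.2 in WT and 2.19, 0.720 and 1.56 in KO. In WT + TAM its CPM was 4.22, 15.6, 8.48 and 9.76, and in KO + TAM it was 1.36, 1.83, 1.40 and 2.20. WT + TAM spanned the whole WT range, and KO and KO + TAM overlapped. The KO libraries held only 22 to 67 counts of this gene and the KO + TAM libraries 41 to 67. KO was at 13.3% of WT, and KO + TAM at 17.9% of WT + TAM.

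*Fsd2*, a muscle protein related to *Cmya5* (myospryn) that is found near the ryanodine receptor, differed least between the genotypes. Its CPM was 278, 359 and 258 in WT and 150, 130 and 124 in KO. It was 166, 256, 222 and 227 in WT + TAM and 114, 101, 107 and 151 in KO + TAM. The highest KO + TAM library was still under the lowest WT + TAM library, and KO and KO + TAM overlapped. KO was at 45.0% of WT, and KO + TAM at 54.3% of WT + TAM.

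**Figure D1:**
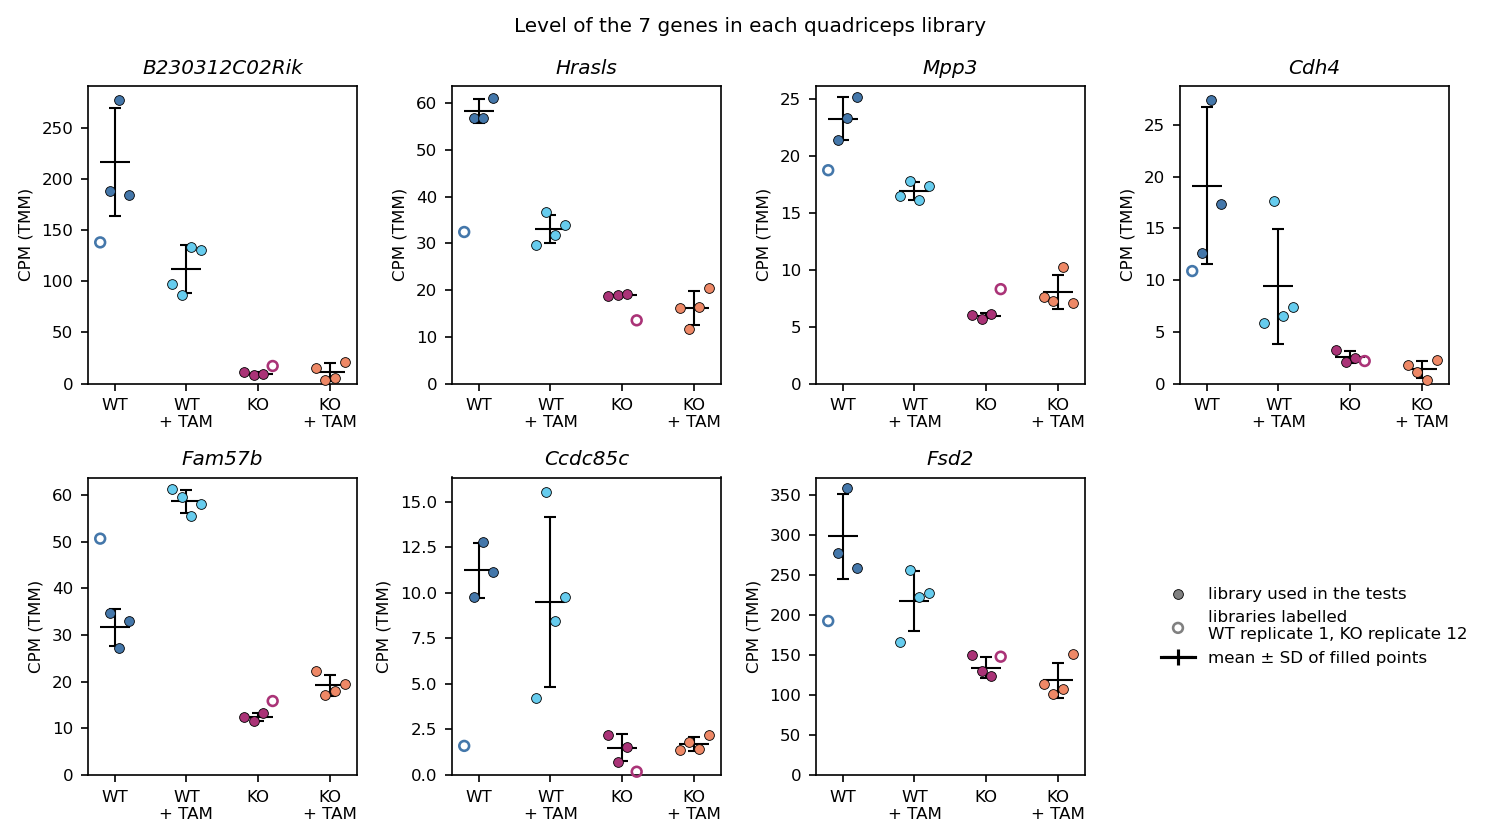
CPM (TMM scaling, linear axes from 0) of each of the 7 genes in every quadriceps library by group, with the mean and SD of the filled points, the 14 libraries analysed. Open circles are the 2 left-out libraries, labelled WT replicate 1 and KO replicate 12. In all 7 genes the filled KO and KO + TAM points lie below the filled WT and WT + TAM points, and *Fam57b* is the gene with WT + TAM on top.

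In KO against WT, the contrast behind the choice of these genes, the log2 fold change was -4.48 (SE 0.22) for *B230312C02Rik*, -2.88 (SE 0.35) for *Ccdc85c*, -2.86 (SE 0.31) for *Cdh4*, -1.94 (SE 0.14) for *Mpp3*, -1.59 (SE 0.11) for *Hrasls*, -1.32 (SE 0.14) for *Fam57b* and -1.13 (SE 0.16) for *Fsd2* (3 libraries each). Across all 14740 genes of this fit, 1.69% were lower at an adjusted p of at most 0.01 and 19% were lower in every KO than in every WT library. When both left-out libraries were included, the values were -4.08 for *B230312C02Rik*, -2.89 for *Ccdc85c*, -2.75 for *Cdh4*, -1.74 for *Mpp3*, -1.53 for *Hrasls*, -1.43 for *Fam57b* and -0.96 for *Fsd2*.

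The library labelled WT replicate 1 did not sit at 1 level across the genes. Its CPM was 1.60 for *Ccdc85c*, a level of the KO libraries, and 32.4 for *Hrasls* and 193 for *Fsd2*, levels of WT + TAM. It was 50.6 for *Fam57b*, above every WT library and below every WT + TAM library. For *B230312C02Rik*, at 138, and for *Cdh4*, at 10.9, it was far above the KO libraries but below every analysed WT library (lowest 184 and 12.6). The library labelled KO replicate 12 was above the other KO libraries for *B230312C02Rik* (17.2), *Mpp3* (8.30) and *Fam57b* (15.8), below them for *Hrasls* (13.5) and *Ccdc85c* (0.181, which is 5 counts), and within their range for *Cdh4* and *Fsd2*.

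The genotype difference was then tested in mice given tamoxifen, whose 8 libraries are outside the KO against WT contrast. The genes were picked with results of all groups known, so these libraries are not shown to be independent of the choice. All 7 genes were lower in KO + TAM than in WT + TAM. The fall was largest for *B230312C02Rik*, *Cdh4* and *Ccdc85c*, and smallest for *Fsd2*. In the edgeR quasi-likelihood test, 7 of 7 passed an adjusted p of 0.01, where 3.3% of the 14563 genes tested were lower at that threshold. The 7 genes also had no overlap between the groups, as had 11.6% of all genes in this direction.

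For *B230312C02Rik* the log2 fold change was -3.31 (SE 0.48, adjusted p = 0.00136). *Cdh4* had -2.79 (SE 0.49, adjusted p = 0.00372) and *Ccdc85c* -2.48 (SE 0.35, adjusted p = 0.00118). *Fam57b* had the smallest error and the lowest p, at -1.61 (SE 0.11, adjusted p = 2.51e-05). The scaffold *Mpp3* was at -1.07 (SE 0.14, adjusted p = 9.05e-04), *Hrasls* at -1.03 (SE 0.16, adjusted p = 0.00191) and *Fsd2* at -0.88 (SE 0.16, adjusted p = 0.00440). Each difference had a p of 0.0286 in a two-sided exact permutation test of log2 CPM, the smallest that 70 splits of 4 against 4 allow. Groups without overlap always give this value, so it adds nothing to the lack of overlap above. The permutation test and the edgeR tests count each library as a separate mouse. Whether WT + TAM replicates 7 and 8 are separate mice was not tested. In bulk RNA, fewer cells of a type and less RNA per cell cannot be told apart.

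Leaving out a library ended the calls of *Fsd2* and *Cdh4*, and limma on RPKM those of *Fsd2* and *Mpp3*. *Fsd2* missed the threshold without WT + TAM replicate 6, 7 or 8 and without KO + TAM replicate 13, 14 or 15, with adjusted p-values of 0.0105 to 0.0203 and log2 fold changes of -0.80 to -0.87. *Cdh4* missed it without KO + TAM replicate 13 (adjusted p = 0.0101) or 14 (adjusted p = 0.0142), at -2.92 and -2.70.

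Markers of fiber type moved with this difference. All 5 fast 2B fiber genes (*Myh4*, *Actn3*, *Mybpc2*, *Pvalb* and *Myoz1*) passed as lower in KO + TAM, and their summed CPM was 28241 to 37770 there against 70672 to 81630 in WT + TAM. All 8 genes of immature or denervated fibers (such as *Myh3*, *Runx1* and *Chrnd*) passed as higher, with sums of 287 to 424 against 62.7 to 104. In KO and WT the same sums were 30469 to 43739 against 65275 to 108544 for fast 2B genes and 313 to 464 against 69.2 to 83.2 for immature fiber genes. Of the slow fiber genes 2 of 7 were higher and of the mature fiber genes 2 of 5 lower. By myosin staining of tibialis anterior, the paper found untreated knockout and wild type alike in fiber types. It reports more 2B fibers in knockout mice given tamoxifen. That staining measured protein in another muscle. The part of fiber type in the levels of the 7 genes was not tested.

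Genes that mark other cells did not pass the test in this comparison. That held for 5 genes each of satellite cells, endothelium, fibroblasts, fat and red blood cells, 6 of Schwann cells and 4 of immune cells, and none of these genes was at 0 in all 14 libraries. The median log2 fold change was -0.40 for satellite cell, -0.29 for endothelial, 0.33 for fibroblast, -0.68 for fat, 0.75 for immune, 0.20 for Schwann and -0.26 for red blood cell genes, beside -0.01 for all genes. Summed CPM of the satellite cell genes was 41.1 to 51.4 in WT + TAM and 29.1 to 38.9 in KO + TAM, without overlap, and that of the immune genes was 20.1 to 45.2 and 52.3 to 92.6, also without overlap. Their part in the levels of the 7 genes was not tested either.

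In KO, none of the 7 genes passed an adjusted p of 0.01 under tamoxifen. *Fam57b* was 0.62 higher on the log2 scale in KO + TAM than in KO (SE 0.14, unadjusted p = 9.94e-04 and adjusted p = 0.192 in edgeR's quasi-likelihood fit), and *Mpp3* 0.43 higher (SE 0.18, adjusted p = 0.600). For *Fam57b* the adjusted p was 0.0143 in DESeq2, 0.0329 in edgeR's exact test and 0.0677 in a quasi-likelihood fit of all 4 groups. The KO + TAM libraries of both genes lay above all KO libraries, as did those of 3.98% of all genes tested. These fits share the KO libraries with the contrast that chose the genes, and a choice for low KO values leans this comparison upward.

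For the other 5 genes the libraries overlapped. The log2 fold change was 0.24 for *B230312C02Rik* (95% interval -0.86 to 1.33), 0.17 for *Ccdc85c* (-0.66 to 1.01), -0.20 for *Fsd2* (-0.54 to 0.15), -0.25 for *Hrasls* (-0.63 to 0.14) and -0.94 for *Cdh4* (-1.97 to 0.10). Each of these 5 intervals includes shifts of over 0.5 on the log2 scale in at least 1 direction. Over all 15062 genes the quasi-likelihood test called 0 genes, with 1137 at an unadjusted p of at most 0.05. DESeq2 and edgeR's exact test each called 72 genes, none of them among the 7. The summed CPM of each of the 11 lists of cell and fiber markers overlapped between KO and KO + TAM.

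None of the 7 genes returned to the wild type range under tamoxifen. The highest KO + TAM library was below the lowest library of untreated WT in 7 of 7 genes, as it was in 16.3% of 15031 genes with at least 10 counts in 3 of these 7 libraries. These WT libraries are those behind the choice of the genes. Mean levels in KO + TAM were 5.23% of WT for *B230312C02Rik*, 7.14% for *Cdh4*, 15.1% for *Ccdc85c*, 27.7% for *Hrasls*, 34.6% for *Mpp3*, 39.6% for *Fsd2* and 60.8% for *Fam57b*.

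In wild type muscle none of the 7 genes passed an adjusted p of 0.01 under tamoxifen, as 0.131% of 14544 genes did. At 0.05, which 0.55% of genes passed, *Fam57b* was higher in WT + TAM than in WT and *Hrasls* lower. For *Fam57b* the log2 fold change was 0.89 (SE 0.12, adjusted p = 0.0140), and its mean in WT + TAM was 185% of that in WT. *Hrasls* had -0.82 (SE 0.11, adjusted p = 0.0119) and a mean at 56.7% of WT. The noncoding *B230312C02Rik* had -0.95 (SE 0.19, adjusted p = 0.0681), *Mpp3* -0.46 (SE 0.11, adjusted p = 0.134) and *Fsd2* -0.46 (SE 0.16, adjusted p = 0.340).

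These 3 genes and *Hrasls* had no overlap between the groups, all 4 with WT + TAM below WT (6.33% of all genes), and *Fam57b* had none in the other direction (5.14%). For *Cdh4* (-1.02, SE 0.39, adjusted p = 0.381) and *Ccdc85c* (-0.24, SE 0.34, adjusted p = 0.856) the groups overlapped. The comparison shares the WT libraries with the contrast that chose the genes, and a choice for high WT values leans it downward. Downward is opposite to the direction of *Fam57b* and is that of *Hrasls* and *B230312C02Rik*, where the choice favors low p-values. *Fam57b* and *Hrasls* passed 0.01 in DESeq2 (adjusted p = 3.40e-08 and 5.30e-08) and in edgeR's exact test (6.83e-06 and 5.35e-06), and so did *B230312C02Rik* (3.48e-04 and 0.00125). Without WT + TAM replicate 6, *Hrasls* passed in the quasi-likelihood test too (adjusted p = 0.00919). Replicates 7 and 8 of WT + TAM are not shown to be separate mice. Without replicate 7 or 8 the adjusted p in that test was 0.0551 or 0.0453 for *Hrasls* and 0.0470 or 0.0460 for *Fam57b*. With the library labelled WT replicate 1 added, no gene of the 7 passed 0.01. The summed CPM of fast 2B fiber genes overlapped between WT (65275 to 108544) and WT + TAM (70672 to 81630), and that of 5 fibroblast genes did not (4381 to 5123 and 2577 to 4088), with none of these genes called. The part of the fibroblast RNA in the values above was not tested.

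**Figure D2:**
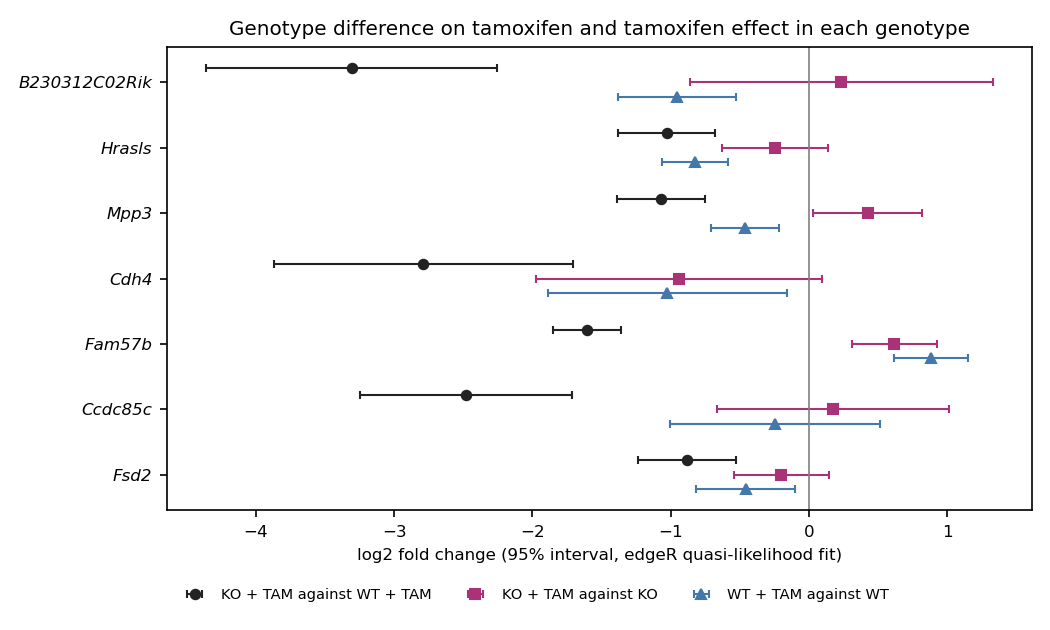
Log2 fold change with its 95% interval from edgeR's quasi-likelihood fits for the 7 genes, for KO + TAM against WT + TAM (black circles), KO + TAM against KO (purple squares) and WT + TAM against WT (blue triangles). The black intervals all lie below 0, and *Fam57b* alone has both drug effects above 0 with intervals that leave out 0.

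The tamoxifen effect in KO minus that in WT was taken as an interaction in 1 fit of the 4 groups. It subtracts the KO minus WT contrast on which the genes were chosen as low, which pushes it upward, so its values are given as a description with no p. The difference was 0.90 for *Mpp3* (SE 0.19, 95% interval 0.49 to 1.31), 0.59 for *Hrasls* (0.15 to 1.03) and 1.20 for *B230312C02Rik* (-0.09 to 2.49). For *Fam57b* it was -0.26 (-0.61 to 0.10), for *Fsd2* 0.27 (-0.24 to 0.78), for *Ccdc85c* 0.43 (-0.71 to 1.56) and for *Cdh4* 0.09 (-1.34 to 1.52). None of the 15556 genes passed an adjusted p of 0.01 in edgeR, with 664 at an unadjusted p of at most 0.05. DESeq2 called 11 genes, none of the 7. The upward push also shifts the 95% intervals above, so an interval that leaves out 0 is not a test here.

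Close relatives of the 7 genes mostly did not fall with them. In KO + TAM against WT + TAM, *Cdh4* was the only called gene of 8 cadherins tested, *Ccdc85c* the only one of 3 Ccdc85 genes and *Hrasls* the only one of 2 tested phospholipase and acyltransferase (PLAAT) genes. The median of the other 7 cadherins was -0.04 on the log2 scale, with M-cadherin (*Cdh15*) at -0.40 (adjusted p = 0.0745) and N-cadherin (*Cdh2*) at 0.19 (adjusted p = 0.690). None of 5 catenins, which join cadherins to actin, was called (median 0.01).

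Among the relatives of *Mpp3*, 2 of 12 scaffold genes tested, of the guanylate kinase family and its Lin7 partners, were lower, *Mpp3* and *Dlg1*. *Dlg1*, a scaffold at cell junctions, had a log2 fold change of -0.79 (SE 0.14, adjusted p = 0.00358). The other 10 ran from *Mpp2* at -0.68 to *Mpp1* at 0.53 and did not pass, and the median of the 11 without *Mpp3* was -0.02. None of 3 Cadm genes, adhesion proteins known to bind *Mpp3*, passed, with *Cadm1* at 0.68 (adjusted p = 0.0460).

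The genes of lipid metabolism went both ways. Of 12 TLC domain genes tested, *Fam57b* and *Cers1* were lower and *Cers5* and *Tram1* higher. *Cers1*, a ceramide synthase of muscle and brain, had -1.21 (SE 0.25, adjusted p = 0.00773), but 42.5% of its exon bases are also annotated to *Gdf1* on the same strand. *Cers5*, a synthase of shorter ceramides, had 0.62 (SE 0.12, adjusted p = 0.00693) and *Tram1*, a protein of translocation into the endoplasmic reticulum, 0.49 (SE 0.10, adjusted p = 0.00907). *Cers6* had a larger value of 1.23 and did not pass (adjusted p = 0.0102).

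Of 20 other genes of ceramide metabolism 2 were higher and none lower (median 0.13). *Ugcg*, which adds glucose to ceramide, had 0.98 (SE 0.14, adjusted p = 0.00115), and *Degs1*, the desaturase of the last step of ceramide synthesis, 0.52 (SE 0.09, adjusted p = 0.00425). Among 7 genes of the N-acyl ethanolamine pathway, which *Hrasls* can feed, 1 was lower (median -0.30). It was *Pla2g4e*, an acyltransferase that makes the same precursor, at -0.88 (SE 0.13, adjusted p = 0.00162).

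Relatives of *Fsd2* and proteins of the triad had mostly negative values. Of 9 tested 3 were lower, *Fsd2* itself, *Jph2* at -0.95 (SE 0.16, adjusted p = 0.00307) and *Jph1* at -0.78 (SE 0.14, adjusted p = 0.00399), the junctophilins that hold the tubule to the reticulum. The median of the 8 without *Fsd2* was -0.71, where the median of all genes was -0.01. *Cmya5* (-0.83, adjusted p = 0.0129), *Ryr1* (-0.71, adjusted p = 0.0108) and *Casq1* (-0.72, adjusted p = 0.0217) did not pass, and *Trdn*, *Jsrp1* and *Fsd1l* were between -0.08 and -0.02.

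Under tamoxifen alone, none of the genes in these 10 groups passed in KO + TAM against KO or in WT + TAM against WT. Over all genes, 0 of 15062 passed in the first comparison and 0.131% of 14544 in the other, so this says little about these groups.

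Genomic neighbors were measured to see whether the falls reached beyond the genes. Of 9 nearest neighbors with enough counts for a test, 1 was called in KO + TAM against WT + TAM. This was *Ccnk*, cyclin K, which pairs with kinases of transcription elongation and lies 243 bp from *Ccdc85c*, on the opposite strand and with the ends of both genes facing each other. Its CPM was 82.6, 111, 78.0 and 76.8 in WT + TAM and 43.1, 37.4, 43.2 and 44.3 in KO + TAM, without overlap, and the log2 fold change was -1.05 (SE 0.13, adjusted p = 7.46e-04). WT + TAM replicate 6 was the highest library for both *Ccnk* and *Ccdc85c*.

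In wild type muscle *Ccnk* did not pass the test under tamoxifen. Its CPM in WT was 51.5, 67.3 and 60.2, below every WT + TAM library, and its log2 fold change in WT + TAM against WT was 0.55 (SE 0.15, adjusted p = 0.215), beside -0.24 for *Ccdc85c*. Whether the 2 genes differ in this was not tested. The strand setting of the counting is not given in the sources used here, so reads that run past the end of either gene cannot be assigned.

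*B230312C02Rik* begins 3163 bp from *Mir1a-1* and 12494 bp from *Mir133a-2*, precursor genes of muscle microRNAs on the opposite strand. *Mir1a-1* had 32 counts over all 16 libraries and was not tested. *Mir133a-2* had 35 to 66 counts per library in WT + TAM and 71 to 160 in KO + TAM, with a log2 fold change of 0.77 (SE 0.30, adjusted p = 0.0984), opposite in sign to *B230312C02Rik*. The table does not measure mature microRNAs.

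*Fam57b* shares 25 exon bases, 0.64% of its own, with *Aldoa* on the opposite strand. *Aldoa*, an enzyme of glycolysis, had 6992528 counts over 16 libraries, and whether any of its reads were counted for *Fam57b* was not tested. Its log2 fold change was -0.64 in KO + TAM against WT + TAM (SE 0.17, adjusted p = 0.0226), 0.21 in WT + TAM against WT and 0.00 in KO + TAM against KO, where *Fam57b* had -1.61, 0.89 and 0.62. Beside *Cdh4*, *Taf4a*, a subunit of the TFIID complex, had -0.49 (adjusted p = 0.0575). Next to *Ccdc85c* on its other side, *Hhipl1* had 1.78 (adjusted p = 0.0721) from low counts. Of 50-base exon stretches, 1.21% of those in *B230312C02Rik* and 0.7% of those in *Mpp3* occur in other genes, and none in the other 5.

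**Figure D3:**
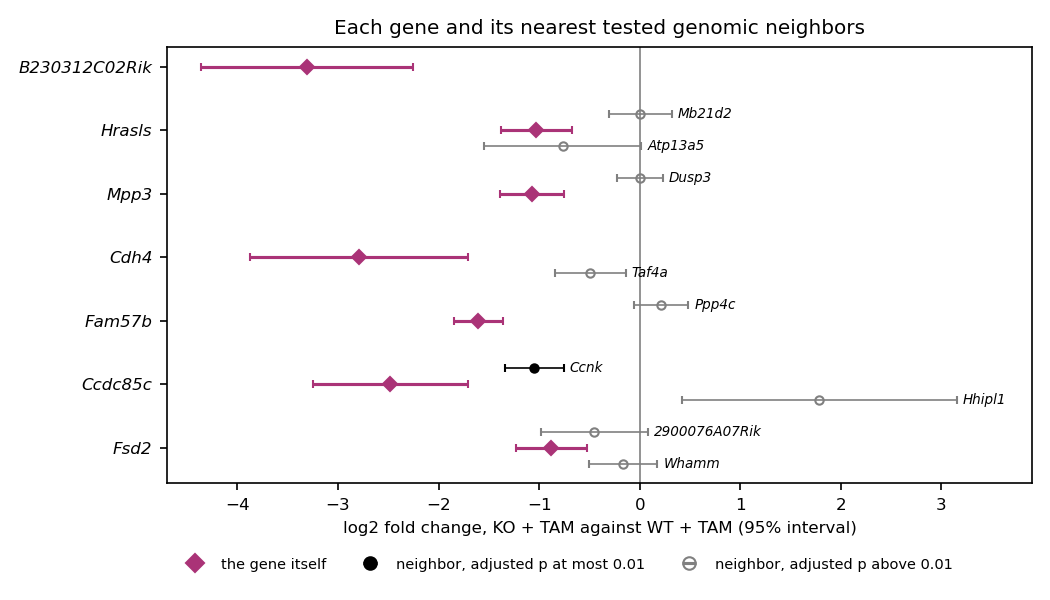
Log2 fold change with its 95% interval in KO + TAM against WT + TAM for the 7 genes (diamonds) and for their nearest annotated neighbors on either side that had enough counts for a test (circles). *Ccnk*, beside *Ccdc85c*, is the filled circle and the only neighbor with an adjusted p of at most 0.01.

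Across the 14 libraries the 7 genes varied together. Pearson's r of log2 CPM over the 21 pairs of genes ran from 0.61 to 0.95 with a median of 0.90, and the genes were chosen on 1 contrast and share all libraries. After subtracting the group means, r ran from -0.46 to 0.69 with a median of 0.30. The highest of these was for *Ccdc85c* and *Fsd2* (0.69), and *Cdh4* and *Fsd2* had 0.68. *Mpp3* and *Cdh4* had the lowest (-0.46). With the 2 left-out libraries added the median within groups was 0.14, with a range of -0.72 to 0.77.

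The genes whose log2 CPM followed each member most closely, out of 15556 genes over 14 libraries, were *Ndufaf5* and *2310065F04Rik* for *B230312C02Rik* (r of 0.98 and 0.98), and *Adi1* and *Hfe2* for *Hrasls* (0.96 and 0.96). They were *Zfp367* and *Rnf139* for *Mpp3* (0.95 and 0.94), *Fam19a3* and *Map2k6* for *Cdh4* (0.97 and 0.96) and *Adssl1* and *Mylk2* for *Fam57b* (0.96 and 0.96). For *Ccdc85c* they were *Dpp9* and *Lgr4* (0.99 and 0.99), and for *Fsd2* *Dnajc27* and *Homer1* (0.98 and 0.97). Within groups r was highest, among these pairs, for *Cdh4* with *Fam19a3* (0.96) and for *Ccdc85c* with *Dpp9* (0.92), and lowest for *Fam57b* with *Mylk2* (0.15). The pairs were picked by r over the same libraries, so a high r within groups is partly built in. With the 2 left-out libraries added, 3 of these 14 likest genes stayed (*Hfe2*, *Mylk2* and *Lgr4*), and with a prior count of 0.5 in the log2 CPM 12 did.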

How the data were processed

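RNA-seq of mouse quadriceps from 16 libraries was taken from 2 deposited tables. For the raw counts, the authors mapped reads with STAR (2-step, GRCm38) and tallied them per gene with HTSeq, without normalization. The RPKM values were made by the authors from these counts. The submitters' processing notes name bcl2fastq 2.17, STAR 2.5.0c and Cufflinks 2.2.1. The sources used here do not give annotation, counting mode, strand setting or the gene length behind RPKM. No 2 libraries shared the same count column, in 120 comparisons. Resequencing the same mouse would also give unequal counts, so this does not show that the libraries come from separate mice. In WT + TAM replicates 7 and 8 the summed CPM was 51.4 and 51.0 for satellite cell genes and 4088 and 3999 for fibroblast genes. It was 353 and 344 for fat genes and 45.0 and 41.6 for immune genes. Slow fiber genes summed to 258 and 255, endothelial genes to 300 and 299 and red blood cell genes to 158 and 156. If both came from the same mouse, errors and p-values that use WT + TAM would be understated.

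Counts were tested with edgeR 4.0.16 in R 4.3.3 (TMM, filterByExpr with minimum count 10 and minimum total 15, quasi-likelihood test, Benjamini-Hochberg over all genes tested, adjusted p at most 0.01) on the libraries of the 2 groups compared, or of the 4 groups for the interaction. CPM in the text uses TMM factors over 16 libraries, and log2 CPM a prior count of 2. As alternatives, edgeR's exact test, DESeq2 1.42.0 and limma 3.58.1 (log2 RPKM, pseudocount 0.1 or 1) were run, with other scalings and filters, a threshold of 0.05, a single fit of 4 groups, all 16 libraries, and single libraries left out in turn. Tested on simulated data for KO + TAM against WT + TAM (14563 genes, 200 changed by 2 on the log2 scale), 89% of changed genes and 3 others were called. For KO + TAM against KO (15062 genes) 84%, for WT + TAM against WT (14544 genes) 81.5% and for the interaction (15556 genes) 65.5% were called.

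The 7 genes, the gene lists and the tests were chosen with earlier results of these data known. The rule for named genes took the 7 genes and *Mtm1*, list genes called in KO + TAM against WT + TAM (the 3 with the largest fold change in the N-acyl ethanolamine, catenin and ceramide lists), the 2 genes most like each of the 7, nearest neighbors with a count and overlapping genes. Other list members and *Mir133a-2* were named after their values were seen. Sequences are from RefSeq and positions from GENCODE.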

Additional observations from a re-analysis of the deposited data

Results flagged for a closer look

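Within groups of 4 libraries, a highest or lowest value was looked for whose gap to the next, over the range of the group, passes Dixon's 95% critical value. Of 28 groups tested 5 passed, where chance alone flags about 1 in 20. *Cdh4* was 17.7 CPM in WT + TAM replicate 6 and 5.90 to 7.45 in the other 3 libraries. Without that library the log2 fold change of *Cdh4* in KO + TAM against WT + TAM was -2.29 in place of -2.79. *Mpp3* was 10.3 CPM in KO + TAM replicate 15 and 7.08 to 7.59 in the others.

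The remaining 3 values belong to the libraries that the study did not analyse. In the library labelled WT replicate 1, *Hrasls* was 32.4 CPM beside 56.8 to 61.2 in the other WT libraries. In the library labelled KO replicate 12, *Hrasls* was 13.5 CPM beside 18.8 to 19.2, and *Mpp3* was 8.30 CPM beside 5.69 to 6.11. No cause was tested for any of these values.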

How the results depend on the processing

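The sign of the genotype difference on tamoxifen held for each of the 7 genes in all 126 alternative values, and the number called was 7 or, with scaling by library size only, 6 (without *Fsd2*), with limma on RPKM 5 (without *Mpp3* and *Fsd2*), and 5 to 7 with a library left out. Scaling by library size only took the median over all genes, on the log2 scale, from -0.01 to 0.27 in KO + TAM against WT + TAM and from 0.02 to 0.33 in KO against WT. In KO + TAM against WT + TAM the split of all called genes was then 1657 higher and 217 lower, against 498 and 481. With limma on log2(RPKM + 1) the fall of *Cdh4* was -0.82, since the pseudocount shrinks low genes. In KO + TAM against KO no alternative called a gene of the 7. In WT + TAM against WT the number called was 3 with DESeq2 and with the exact test, 2 at a threshold of 0.05 and with no filter, 1 with upper quartile scaling and 1 in a single fit of the 4 groups, against 0, and 0 to 1 with a library left out. No alternative called any of the 7 in the interaction, which holds the contrast that chose the genes and is a description only. The median r among the genes was 0.90, also with a prior count of 0.5, and 0.82 with the 2 other libraries, where the median within groups was 0.14 against 0.30.

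Values near 0 changed sign. In KO + TAM against KO, *B230312C02Rik* was -0.15 and -0.094 with limma (pseudocounts 0.1 and 1), -0.023 with the 2 other libraries and -0.26 to 0.53 with a library left out, negative without KO + TAM replicate 16. *Ccdc85c* was -0.16 to 0.56 with a library left out, negative without KO replicate 10. In WT + TAM against WT, *Ccdc85c* was 0.11 with the library labelled WT replicate 1. The interaction of *Cdh4* was -0.012 by library size only, -0.0098 with the 2 other libraries, and -0.26 to 0.60 with a library left out. No paired analysis was possible because no replicate number occurs in more than 1 group. Low counts of *Ccdc85c* and *Cdh4* in KO limit their precision.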
